A study of Mus musculus with 111 samples.

Results

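Sperm of the cauda epididymis, the tail of the duct in which mature sperm are stored, were compared between mice on a low-protein diet and mice on its control diet. The libraries were taken by diet and by the tissue label, and they are 10 of the 111 mouse libraries of the study, which covered 6 tissues. The control group (5 libraries) came from animals raised on an AIN-93g diet with 18% protein, and the low-protein group (5 libraries) from animals raised on a diet with 10% protein in which sucrose replaced the missing mass. Feeding lasted 6 months in both. The labels name no genotype, strain or further treatment. Set beside them were cauda sperm of a high-fat control diet (7.2% of calories from fat, 5 libraries) and a high-fat diet (60% of calories from fat, 4 libraries), and the cauda epididymis itself on the control diet (5 libraries) and the low-protein diet (4 libraries). The cauda epididymis on the high-fat control diet (5 libraries) and the high-fat diet (4 libraries) also entered the fit of both tissues. Feeding lasted 6 months in these groups too. Whether each library is its own animal is not stated, so the p-values measure only how much these libraries vary, and part of that may be technical.

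Mature sperm transcribe almost nothing, and the small RNA they carry is what is left from their formation in the testis together with what they take up while they pass along the epididymis. Fragments of cytosolic tRNAs are a large part of that load. A tRNA carries an amino acid to the ribosome and reads a codon with its anticodon, and its fragments in mouse sperm have been studied as carriers of paternal dietary information, with glycine and glutamate tRNAs as well-known parents. Mitochondrial tRNAs are cut out of long transcripts of both strands of the mitochondrial genome, small nucleolar RNAs (snoRNAs) guide the modification and processing of ribosomal RNA, and small nuclear RNAs (snRNAs) form the spliceosome. The method, OTTR-seq, uses a retroelement reverse transcriptase to join both adapters during copying. The deposited counts are given per named RNA. Every library name in the table ends in the same suffix, whose meaning is not given, so it is not known whether reads were selected by length before counting, nor whether the tRNA values hold fragments, whole tRNAs or both. Values below are RPM, reads scaled to a library total of 1000000 over the 1042 entries kept as features.

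No RNA passed the test for a difference between the diets. Of 180 features with enough reads to be tested, 0 were called at an adjusted p under 0.05 (edgeR quasi-likelihood test, Benjamini-Hochberg adjustment), which is 0% of those tested, and 0 had even an unadjusted p under 0.05. DESeq2 called 0 as well, with 2 features at an unadjusted p under 0.05. The smallest edgeR p was 0.0526, for the U2 snRNA copy Gm23472, and the smallest adjusted p was 0.987. The log2 fold changes, low-protein minus control, lay between -1.80 and 1.28 with a median of 0.01, and 91 were above 0 and 89 below it. In 0 of 180 features did the RPM of the 2 groups fail to overlap.

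These values bound the differences only loosely. The median feature had a standard deviation of 1.01 among the control libraries and 1.22 among the low-protein libraries, on the log2 scale of scaled counts, against a median absolute log2 fold change of 0.32. The 95% interval of the log2 fold change reached 1.37 to either side in the median feature. It stayed within ±1 (a doubling or its reverse) for 0 features, within ±2 for 135 and within ±3 for 176 of the 180.

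The most abundant RNAs of these libraries carried much of the comparison and are shown here because several of them share sequence, so that their counts are not independent. Gm23935, Gm24270 and Gm24245 are annotated as miRNA hairpins but are identical over their 57 bases, and Gm24187 differs from them by G11A, counted from the 5′ end of Gm23935. Gm25911 has G14A and lacks 1 base. The capitals mark the substituted base.
Gm23935, Gm24270 and Gm24245: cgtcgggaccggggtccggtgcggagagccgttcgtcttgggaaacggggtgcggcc
Gm24187: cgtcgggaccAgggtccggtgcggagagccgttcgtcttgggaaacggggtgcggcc
Gm25911: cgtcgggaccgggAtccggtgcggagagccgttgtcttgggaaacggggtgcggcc
On GRCm38 (the assembly of mm10) Gm23935 lies at chr16:11144125-11144181 (plus strand), Gm24270 at chr9:56223715-56223771 (minus strand, within the protein-coding gene Peak1), Gm24245 at chr4:139338304-139338360 (plus strand), Gm24187 at chr13:9834469-9834525 (minus strand) and Gm25911 at chr1:167340369-167340424 (minus strand). The identical entries Gm23935 and Gm24245 were given 14224 and 169 reads over the 10 libraries, so the counts of single copies depend on how reads were divided among them.

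The hairpin Gm47301 lies inside the 5S ribosomal RNA gene n-R5s193, and both names list 16501 reads in the 10 libraries. The RNA with the smallest p, Gm23472 (chr1:72236946-72237136, plus strand, within the lincRNA gene D230017M19Rik), and its copy Gm23971 (chr11:101645740-101645930, minus strand) are 191-base U2 snRNA copies that differ by C109G, shown in capitals and counted from the 5′ end.
Gm23472: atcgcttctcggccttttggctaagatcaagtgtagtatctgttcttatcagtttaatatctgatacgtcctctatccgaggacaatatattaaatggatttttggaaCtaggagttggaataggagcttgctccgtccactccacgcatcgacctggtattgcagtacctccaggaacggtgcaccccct
Gm23971: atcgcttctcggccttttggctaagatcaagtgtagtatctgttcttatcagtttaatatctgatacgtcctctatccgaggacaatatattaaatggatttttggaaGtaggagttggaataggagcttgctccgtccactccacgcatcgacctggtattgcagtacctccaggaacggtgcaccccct

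Depth over the kept features ran from 22651 to 37868 reads in the control and from 11430 to 30306 in the low-protein libraries. No 2 libraries of a group agreed within sampling noise. Low-protein replicate 3 stood apart from the other 9 libraries in its composition, described below, and most counts by RNA group are given with and without it. Over all entries it had 17579 counts, against 85871 to 200062 in the other 9. It had reads in 258 kept features, against 334 to 485. Its TMM scaling factor, 1.632, was the highest of the 19 sperm libraries. Column names of the table carry a running number that goes from 29 to 33 in the control and from 34 to 38 in the low-protein libraries. Its meaning is not given, and whatever it stands for cannot be told apart from diet. The sperm label could be checked only with small RNAs, since no protein-coding marker is counted. Precursors of piRNAs, germ-line small RNAs, had reads in every library. Their level was not compared with that in the cauda epididymis, so these reads cannot tell sperm from that organ. The 10 features most enriched in cauda epididymis over sperm, chosen in libraries of the high-fat control diet, summed to 14210 to 136000 RPM in control sperm and 8480 to 111100 RPM in low-protein sperm, ranges that overlap, against 99259 to 264040 RPM in the cauda epididymis of the control diet. The 10 did not move together. In control replicate 1 tRNA-Asp-GTC-1 alone gave 90050 of the 136000 RPM. In low-protein replicate 3, with the sum of 111100 RPM, tRNA-Gln-CTG-2 had 41643 RPM. The most enriched of the 10, tRNA-Glu-CTC-1, had its lowest sperm value there, 976 RPM. Its mean in the control cauda epididymis was 37372 ± 23302 RPM (SD, n = 5). The part of the 10 features in the values below was not tested, and 7 of them are cytosolic tRNAs.

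No class of RNA passed the test for a difference in its share of reads. In bulk libraries a change in the number of cells of a type and a change in the RNA per cell cannot be told apart. Cytosolic tRNAs took 46.4, 32.8, 10.5, 27.9 and 9.12% of the reads of control replicates 1 to 5, and 12.5, 40.6, 68.4, 14.7 and 7.69% of the low-protein ones. Control replicates 1, 2 and 4 and low-protein replicates 2 and 3 were high and the others low, so each diet held both kinds, and low-protein replicate 3 was the highest of all 10. The means were 25.3 ± 15.7% and 28.8 ± 25.6% (SD, n = 5 each), a difference within the spread of either group (exact permutation test, two-sided p = 0.794, adjusted p = 0.984 over 8 classes). Without low-protein replicate 3 the low-protein mean was 18.9% ± 14.8 (SD, n = 4) and lay below the control mean (exact permutation test, two-sided p = 0.540).

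Mitochondrial tRNAs took 26.8, 32.02, 8.16, 10.3 and 7.16% in the control libraries and 6.95, 19.3, 20.8, 16.2 and 8.18% in the low-protein ones. Control replicates 1 and 2 were highest, and the 3 other control libraries lay inside the low-protein range. Hairpins annotated as miRNA genes took 11.1, 13.9, 32.4, 33.4 and 34.7% and 25.5, 17.3, 2.74, 39.7 and 39.5%, and 5S ribosomal RNA took 4.29, 8.46, 17.8, 12.7 and 14.1% and 28.7, 5.601, 0.342, 9.901 and 11.9%. Low-protein replicate 3 was the lowest library in both. The class means were 16.9 ± 11.6% against 14.3 ± 6.37% for mitochondrial tRNAs, 25.1 ± 11.6% against 24.9 ± 15.7% for hairpins and 11.5 ± 5.21% against 11.3 ± 10.7% for 5S ribosomal RNA (control against low-protein, SD, n = 5 each). Their exact permutation tests gave two-sided p-values of 0.635, 0.984 and 0.968. The hairpin class includes Gm47301, whose reads are also listed under the 5S gene n-R5s193, so part of that class may be 5S ribosomal RNA. Hairpins that overlap another entry took 9.548 ± 4.734% of reads in the control and 8.498 ± 5.514% in the low-protein libraries (SD, n = 5 each). Class shares with these hairpins moved to another class were not tested. Without low-protein replicate 3 the low-protein means were 30.5% ± 11.05 for hairpins and 14.02% ± 10.1 for 5S ribosomal RNA (SD, n = 4 each), both above the control means and within their spread (exact permutation tests, two-sided p = 0.492 and 0.683). For all 8 classes the adjusted p was 0.984, and the smallest p that 5 against 5 libraries allow is 0.0079.

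**Figure D1:**
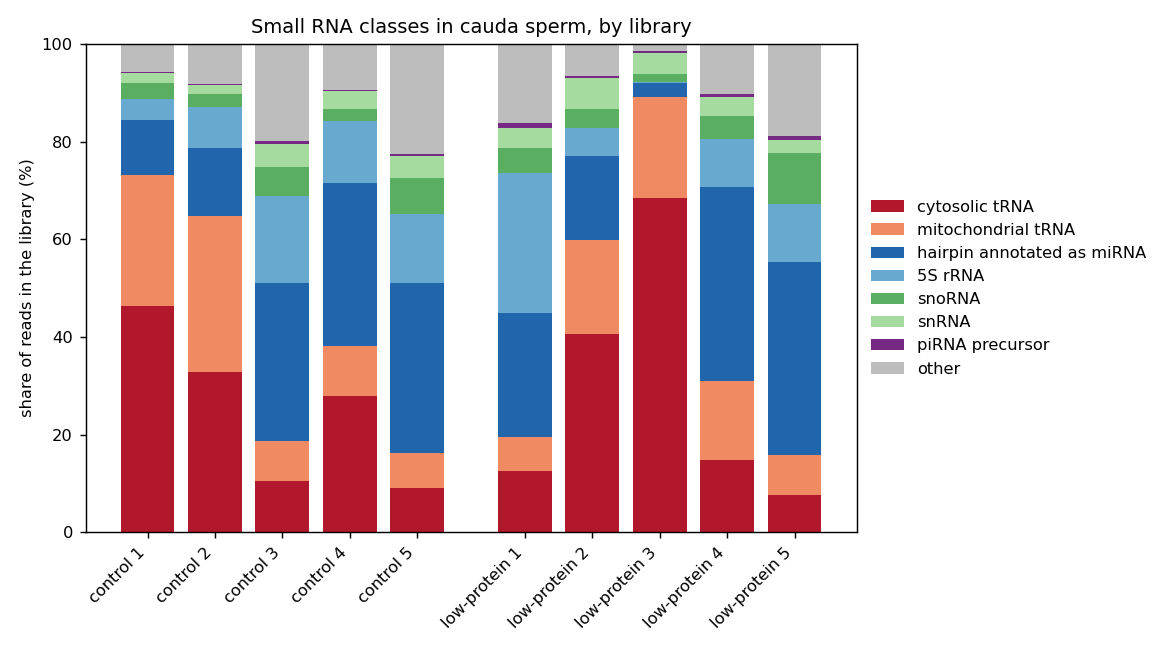
Share of reads (%, vertical axis) taken by 8 classes of small RNA in each of the 5 control and 5 low-protein cauda sperm libraries, 1 bar a library. The red and orange tRNA segments together run from 16.3% to 73.2% in the control bars and from 15.9% to 89.2% in the low-protein bars, so the libraries of either diet span nearly the whole range.

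The tRNAs known as parents of sperm tRNA fragments came next. The 9 anticodons Gly-GCC, Gly-CCC, Glu-CTC, Glu-TTC, Val-CAC, Val-AAC, Lys-CTT, His-GTG and Asp-GTC have 59 entries, of which 47 had reads and 16 were tested. None passed the test in either direction (background 0%), 7 had a log2 fold change above 0 and 9 below, and the median was -0.07 beside 0.01 over all 180 features. Near-identical tRNA copies share reads in an unknown way, so values of single copies are uncertain.

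The aspartate tRNA tRNA-Asp-GTC-1 was the most abundant cytosolic parent in the control group, with 90050, 45605, 10349, 29715 and 7759 RPM in replicates 1 to 5. It had 22047, 44021, 53192, 10275 and 3927 RPM in the low-protein replicates. Levels varied more than 10-fold inside each diet, and the log2 fold change was -0.62 ± 0.67 (standard error; 95% interval -1.97 to 0.72; edgeR adjusted p = 0.987). The glycine tRNA tRNA-Gly-GCC-2, of the anticodon best known for sperm fragments, had 31082, 16202, 3462, 10317 and 2742 RPM in the control libraries and 4024, 30639, 21391, 8600 and 3663 RPM in the low-protein ones. The groups overlapped throughout, and the log2 fold change was -0.11 ± 0.67 (95% interval -1.44 to 1.22). Its copies tRNA-Gly-GCC-4 and tRNA-Gly-GCC-1 had log2 fold changes of -0.19 ± 0.66 and -0.09 ± 0.70.

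The glutamate tRNAs were the steadiest of the set in the control group. tRNA-Glu-CTC-1 had 3063, 3223, 2511, 2293 and 3241 RPM in the control libraries, a range of less than 1.5-fold, and 4637, 4008, 976, 1396 and 2211 RPM in the low-protein libraries. The low-protein values spread to both sides of the control values, and the log2 fold change was -0.05 ± 0.63 (standard error). The other glutamate copies tRNA-Glu-TTC-1 and tRNA-Glu-TTC-2 had log2 fold changes of -0.38 ± 0.59 and -0.34 ± 0.63, and the lysine tRNAs tRNA-Lys-CTT-2 and tRNA-Lys-CTT-3 had 0.10 ± 0.65 and -0.17 ± 0.66.

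For 3 of the 4 tested valine parents, the histidine tRNA tRNA-His-GTG-2 and the rarer glycine anticodon, the sign of the difference turned on 1 library. The valine tRNA tRNA-Val-CAC-2 had 1837, 30142, 106550, 6925 and 3762 RPM in low-protein replicates 1 to 5 and 24612, 26356, 2968, 24255 and 4892 RPM in the control ones. Replicate 3 was more than 3-fold above any other library. Of the 4 other low-protein libraries, replicate 2 lay above every control library, replicate 1 below every one and the remaining pair inside the control range. The log2 fold change was 0.44 ± 0.71 with all libraries and -0.73 without low-protein replicate 3. The other tested valine parent, tRNA-Val-CAC-3, kept its sign (0.49 and 0.22). The same turn of sign occurred for tRNA-Val-AAC-1 (0.46 and -0.76), tRNA-Val-AAC-5 (0.69 and -0.57), tRNA-His-GTG-2 (0.54 and -0.32) and tRNA-Gly-CCC-1 (0.67 and -0.38). None of these values passed the test with or without that library. Without it 3 of the 16 tested parents were above 0 and the median was -0.30, beside 0.03 over the 179 features then tested.

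**Figure D2:**
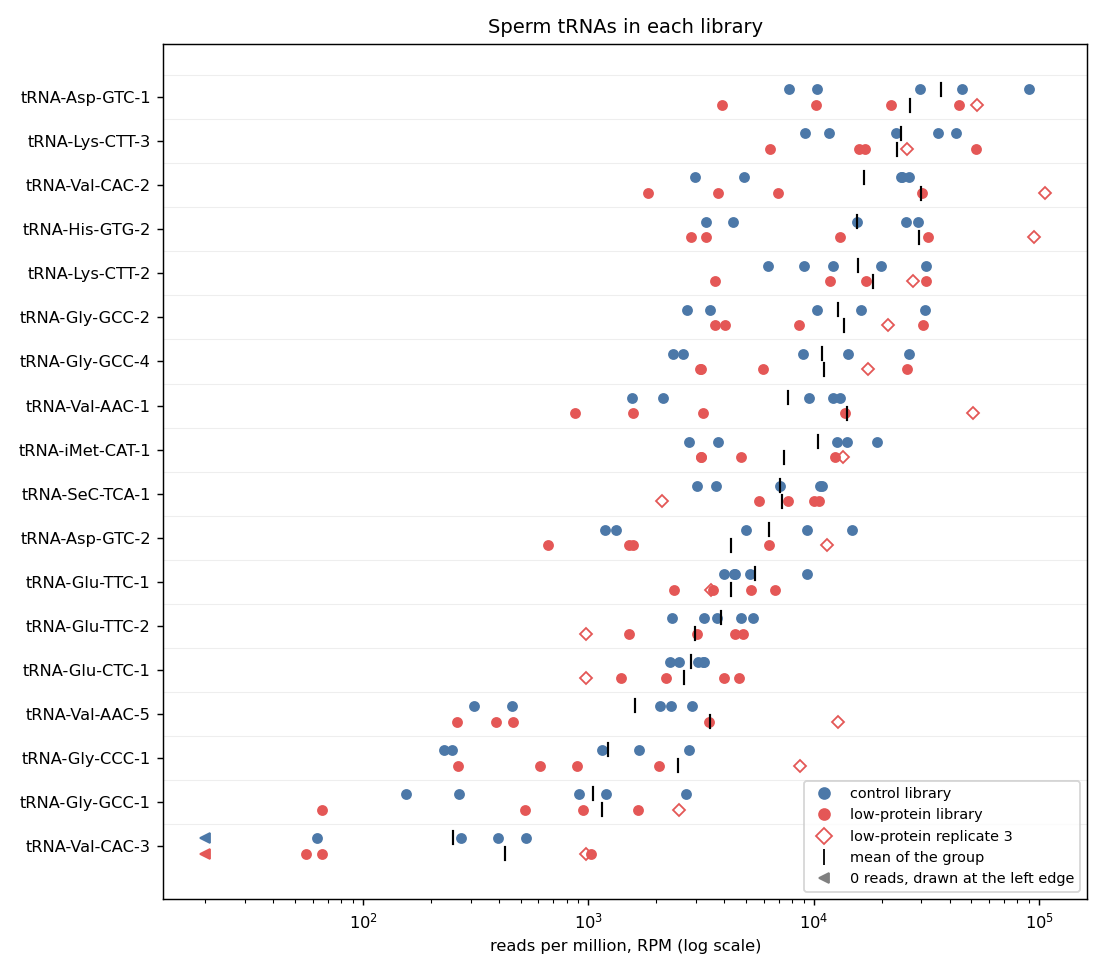
Level of the tested parents of sperm tRNA fragments and of the selenocysteine and initiator methionine tRNAs (RPM, logarithmic horizontal axis), with 1 point per library, control in blue and low-protein in red, and a black tick at each group's mean. The open diamonds of low-protein replicate 3 lie to the right of all other points for tRNA-Val-CAC-2 (106550 RPM) and tRNA-His-GTG-2 (94673 RPM) and to the left of all others for tRNA-Glu-CTC-1 (976 RPM).

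Selenocysteine tRNA, which inserts selenocysteine at recoded stop codons, had its lowest levels in 3 of the 4 libraries richest in cytosolic tRNA. tRNA-SeC-TCA-1 had 3697, 3046, 10843, 7059 and 10658 RPM in the control libraries and 5687, 7685, 2115, 9996 and 10526 RPM in the low-protein libraries. It was lowest in control replicates 1 and 2 and low-protein replicate 3 and was close in the mean of both diets, with a log2 fold change of 0.01 ± 0.62 (95% interval -1.23 to 1.25). As a share of cytosolic tRNA reads it ran over 0.797, 0.930, 10.3, 2.53 and 11.7% in the control and 4.55, 1.89, 0.309, 6.78 and 13.7% in the low-protein libraries. Valine tRNAs ran the other way, with 8.55, 14.7, 5.11, 15.01 and 8.54% and 2.59, 12.8, 26.9, 7.84 and 7.98%. Initiator methionine tRNA, which starts translation, had 14022, 18984, 3766, 12640 and 2805 RPM of tRNA-iMet-CAT-1 in the control libraries and 3149.6, 12454, 13501, 4747 and 3168 RPM in the low-protein ones, with a log2 fold change of -0.66 ± 0.64 (95% interval -1.95 to 0.62).

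Grouped by amino acid, cytosolic tRNAs showed no difference that passed the test in any group. Of 213 cytosolic tRNA features 164 had reads and 58 were tested, 30 of them above 0 and 28 below, with a median log2 fold change of 0.02. Without low-protein replicate 3 it was 13 above and 44 below (median -0.30), and without control replicate 1 it was 39 above and 18 below (median 0.32). Of the tRNAs for essential amino acids, which mammals must obtain from food, 16 of 21 tested were above 0 and the median was 0.23. For the other amino acids 14 of 37 were above 0 and the median was -0.19. Of the tRNAs for the branched-chain amino acids isoleucine, leucine and valine, 14 of 16 were above 0 with a median of 0.40. Without low-protein replicate 3 these counts became 10 of 21 (median -0.12), 3 of 36 (median -0.37) and 9 of 16 (median 0.10), so the lean of the essential group above 0 was not seen without that library. The tRNAs whose anticodon can carry queuosine, a modified base made from a dietary nutrient, had 4 tested members, 2 above and 2 below 0, with a median of -0.19, and without low-protein replicate 3 all 4 were below 0 (median -0.81). The median of the leucine tRNAs was 0.29 over 10 tested, with 9 above 0, and their lowest p was 0.092 (edgeR, adjusted p = 0.987), for tRNA-Leu-CAG-1. That tRNA had 502, 88.3, 228, 211 and 218 RPM in the control and 87.5, 994, 2277, 168 and 198 RPM in the low-protein libraries, where replicates 2 and 3 were above every control library and the other 3 below the highest control library.

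Sums over an anticodon, which do not depend on how reads were divided among copies of that anticodon, gave no call either. Of 160 features tested with cytosolic tRNAs summed in this way, 0 were called (0%) by edgeR and 2 had an unadjusted p under 0.05 (1.25%), neither of them a cytosolic tRNA. DESeq2 was not run on these sums. With TMM scaling 32 of the 38 tested anticodon families lay below 0 (median -0.36). The median of all 160 features was shifted too in that fit (-0.24), with 112 of them below 0 and 48 above. With the size factors of DESeq2 21 of the 38 families lay above 0 (median 0.15). The side of 0 on which these families lay thus depended on the scaling. tRNA-Ala-AGC was lowest with a log2 fold change of -1.34 ± 0.69 (edgeR adjusted p = 0.984), with 599 ± 714 RPM in the control and 452 ± 463 RPM in the low-protein group (SD, n = 5 each). tRNA-Leu-CAG was highest with 0.52 ± 0.70. The summed Asp-GTC family had 105020, 55141, 11680, 34693 and 8944 RPM in the control and 23710, 50580, 64823, 11839 and 4587 RPM in the low-protein libraries, and the summed Gly-GCC family 60447, 31522, 6506, 20273 and 5298 and 7786, 58297, 41480, 15580 and 6929 RPM. Groups overlapped in all 38 families.

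Mitochondrial tRNAs lay below 0 more often than above it without passing the test, and this split rested on single control libraries. Of 22 features all had reads and 18 were tested, 13 below 0 and 5 above, with a median log2 fold change of -0.22. All 6 tested tRNAs of the light-strand group were below 0 (median -0.22), as were 7 of the 12 of the heavy strand (median -0.17). With the DESeq2 size factors 12 of the 18, and 5 of the 6, were below 0, and without low-protein replicate 3 it was 16 of 18 (median -0.41). Without control replicate 1 or control replicate 2, the libraries highest in mitochondrial tRNA, it was 8 and 9 of 18 below 0 (medians 0.07 and 0.01). Among the most abundant was the histidine tRNA mt-tRNA-His-GTG-1 (GRCm38, chrM:11546-11612, plus strand), with 62823, 67061, 27165, 22807 and 22001 RPM in the control and 8749, 60715, 44815, 46462 and 18742 RPM in the low-protein libraries. Its groups overlapped, and the log2 fold change was -0.32 ± 0.64 (95% interval -1.60 to 0.96). The valine tRNA mt-tRNA-Val-TAC-1 (chrM:1025-1093, plus strand), which lies between the mitochondrial ribosomal RNA genes, had 63774, 92976, 11033, 26216 and 10938 RPM and 11286, 49420, 33998, 44899 and 13067 RPM, with a log2 fold change of -0.49 ± 0.65.

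The glutamine tRNA mt-tRNA-Gln-TTG-1 (chrM:3772-3842, minus strand) had the smallest p of the mitochondrial set and is printed with its anticodon in capitals.
mt-tRNA-Gln-TTG-1: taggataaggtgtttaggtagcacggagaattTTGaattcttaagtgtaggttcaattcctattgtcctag
It had 6628, 8829.6, 1559.9, 1599 and 1215 RPM in the control libraries and 2012, 2716, 2115, 1508 and 1419 RPM in the low-protein libraries. Control replicates 1 and 2 were high, and the 3 other control libraries lay within or below the low-protein range. The log2 fold change was -1.03 ± 0.65 (95% interval -2.32 to 0.26; edgeR adjusted p = 0.987). In the fit with anticodon sums it was -1.63 ± 0.71 (edgeR adjusted p = 0.984), before the shift of -0.24 noted above. Scaled among mitochondrial tRNAs alone, an alternative chosen after seeing the data, it was -0.54 ± 0.37 (edgeR adjusted p = 0.736). The leucine tRNA mt-tRNA-Leu-TAA-1 (chrM:2676-2750, plus strand) stood at the other end with 0.68 ± 0.62 over all features.

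Ribosomal RNA and the abundant hairpins, the largest single features, had low-protein means near the control means. The 5S ribosomal RNA feature Gm25018 had 42939, 84588, 177710, 126920 and 141130 RPM in the control and 286790, 56012, 3416, 99012 and 119120 RPM in the low-protein libraries, where replicate 1 was the highest of all 10 and replicate 3 the lowest. Its log2 fold change was 0.18 ± 0.72 (95% interval -1.26 to 1.62). Gm47301, the hairpin inside the 5S gene, had a log2 fold change of -0.06 ± 0.68 (mean RPM 67150 ± 30714 against 60149 ± 38617). Gm23935 had 24744, 23354, 58363, 75268 and 69710 RPM in the control and 61505, 36602, 9597, 98788 and 92292 RPM in the low-protein libraries, with a log2 fold change of 0.33 ± 0.68 (95% interval -1.04 to 1.69), and its copies Gm24270, Gm24187 and Gm25911 had 0.07 ± 0.69, 0.04 ± 0.69 and 0.09 ± 0.67. Of 28 hairpin features 25 had reads and 11 were tested, 7 above 0 and 4 below, with a median of 0.04. Without low-protein replicate 3 it was 10 above and 1 below (median 0.28), and without low-protein replicate 4 it was 3 above and 8 below (median -0.24). The large mitochondrial ribosomal RNA mt-Rnr2 (chrM:1094-2675, plus strand) had 43684 ± 15423 RPM in the control and 42592 ± 31345 RPM in the low-protein group (SD, n = 5 each), with a log2 fold change of 0.04 ± 0.67.

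Signal recognition particle RNA, which takes ribosomes to the endoplasmic reticulum, was represented by Rn7s1, with 11804, 25032, 72706, 31224 and 93362 RPM in the control and 54418, 18317, 2847, 39593 and 51607 RPM in the low-protein libraries. Control replicates 3 and 5, which were low in tRNA, were the highest, and the log2 fold change was -0.40 ± 0.69. Over the 5 tested RNAs of the signal recognition particle, Y RNA, RNase P and 7SK group, 2 were above 0 and 3 below, with a median of -0.01, and without low-protein replicate 3 it was 4 above and 1 below (median 0.22). Rpph1, the RNA of RNase P that trims the leading end of tRNA precursors, had 0.37 ± 0.68, and the Y RNA Rny1 had -0.17 ± 0.68. Gm26461 (chr9:88553236-88553525, plus strand), a small RNA high in cauda epididymis, had 4199, 11479, 31350, 10378 and 44406 RPM in the control and 23272, 6062, 2196, 8600 and 11879 RPM in the low-protein libraries, with a log2 fold change of -0.86 ± 0.69 (95% interval -2.22 to 0.51), against a mean of 170180 ± 42175 RPM in the cauda epididymis of the control diet (SD, n = 5).

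Among snRNAs the U2 copies came nearest to the threshold. U2 pairs with the branch point of an intron. Gm23472, printed above, had 2350.3, 3399, 2397, 3650.3 and 6170.1 RPM in the control and 3325, 17555, 16023, 8768 and 4059 RPM in the low-protein libraries. Low-protein replicates 2, 3 and 4 were above every control library, and replicates 1 and 5 lay inside the control range. The log2 fold change was 1.24 ± 0.63 (95% interval -0.01 to 2.50; edgeR adjusted p = 0.987). Its copy Gm23971 had 2588, 3753, 3234, 4073 and 7666 and 3587, 18847, 17487, 9214 and 5048 RPM and a log2 fold change of 1.11 ± 0.62. The copies differ by 1 base and had 1593 and 1792 reads, so they are not separate evidence. In the cauda epididymis Gm23472 stood at 28763 ± 9070 RPM on the control diet (SD, n = 5) and 27627 ± 6974 RPM on the low-protein diet (SD, n = 4). Of 93 snRNA features 87 had reads and 31 were tested, 15 above 0 and 16 below, with a median of -0.02. The split was 24 above and 7 below without low-protein replicate 3 (median 0.22). Over all 10 libraries left out in turn the median ran from -0.33 without control replicate 1 to 0.65 without control replicate 5.

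Of 217 snoRNA features 197 had reads and 47 were tested, 25 above 0 and 22 below, with a median log2 fold change of 0.15 and no call. Leaving out low-protein replicate 3 gave 33 above and 14 below (median 0.28). Over all 10 libraries left out in turn the median ran from -0.42 without low-protein replicate 5 to 0.54 without control replicate 5. Most of those named rest on few reads. The lowest was Snord55, a box C/D snoRNA. It had 26.4, 0, 419, 181 and 374 RPM in the control libraries and 87.5, 33.1, 0, 112 and 65.99 RPM in the low-protein libraries, so control replicates 3, 4 and 5 were above all low-protein libraries and replicates 1 and 2 were among the lowest. The log2 fold change was -1.80 ± 1.00 (95% interval -3.80 to 0.20; edgeR adjusted p = 0.987), and scaled among snoRNAs alone it was -1.89 ± 0.87 (edgeR adjusted p = 0.930). Snord57 had a log2 fold change of -1.40 ± 1.01. At the other side of 0 were Snord21 with 1.01 ± 0.67, Snord72 with 0.99 ± 0.87 and Snord118, the U8 snoRNA of ribosomal RNA processing, with 1.16 ± 0.87. Snord118 had 132, 44.1, 38.05, 60.3 and 187 RPM in the control and 350.0, 232, 163, 112 and 264 RPM in the low-protein libraries.

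**Figure D3:**
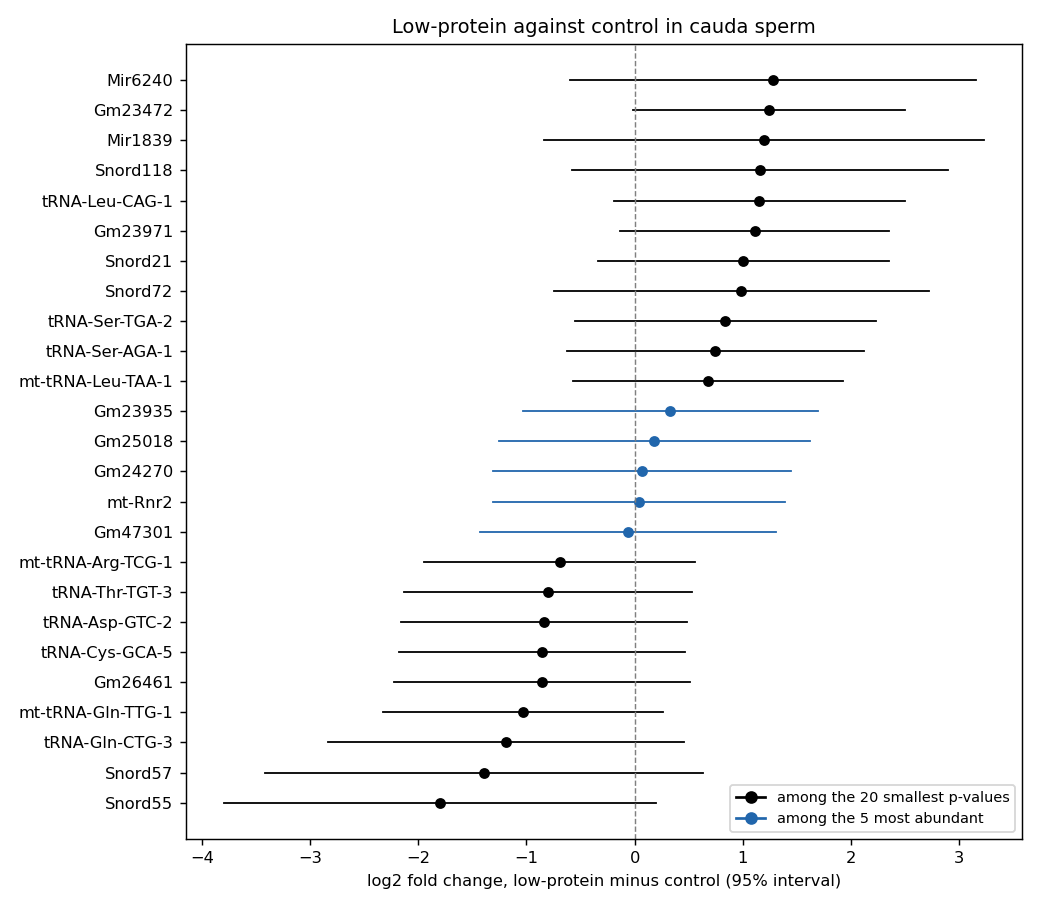
Log2 fold change, low-protein minus control in cauda sperm (horizontal axis; point with its 95% interval), of the 20 features with the smallest p-values (black) and the 5 most abundant features (blue). All 25 intervals include 0, the narrowest miss being Gm23472, whose interval runs from -0.01 to 2.50.

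The other named features with the smallest p-values were mostly tRNAs, and their groups overlapped too. tRNA-Gln-CTG-3 had -1.19 ± 0.82, tRNA-Cys-GCA-5 -0.86 ± 0.66, tRNA-Asp-GTC-2 -0.84 ± 0.66 and tRNA-Thr-TGT-3 -0.80 ± 0.67 as log2 fold changes. The serine tRNAs tRNA-Ser-TGA-2 and tRNA-Ser-AGA-1 had 0.84 ± 0.70 and 0.74 ± 0.69, and without low-protein replicate 3 these were -0.07 and -0.25. The hairpin Mir6240 had 1.28 ± 0.94, and like Mir1839, counted here with the small Cajal body RNAs, it had 0 reads in 2 control libraries.

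Precursors of piRNAs, the guides that silence transposons in the male germ line, gave few reads. Of 276 precursor features 190 had a read in the 10 libraries and 0 passed the filter on low counts. The share of reads was 0.227, 0.247, 0.582, 0.287 and 0.567% in the control and 1.06, 0.368, 0.342, 0.625 and 0.749% in the low-protein libraries. Low-protein replicates 1, 4 and 5 were above the highest control library, and the means were 0.382 ± 0.177% and 0.628 ± 0.296% (SD, n = 5 each; exact permutation test, two-sided p = 0.151, adjusted p = 0.984). Taken over all 1268 entries of the table, some of which list the same reads again, the shares were 0.0984, 0.0648, 0.101, 0.0646 and 0.115% against 0.122, 0.150, 0.364, 0.177 and 0.186%. Those groups did not overlap (exact permutation test, two-sided p = 0.0079, the smallest possible, adjusted p = 0.0635), so the difference did not pass after adjustment. Most of that denominator lies outside the kept features, which hold 19.754% of the summed counts of the 10 libraries. They hold 12295 of 17579 counts in low-protein replicate 3 but 32090 of 200062 in control replicate 5. The part of the denominator in this difference was not tested. The precursor reads themselves numbered 56 to 182 in the control and 42 to 227 in the low-protein libraries.

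The low-protein difference was then set beside the high-fat difference in sperm. These contrasts have no library in common, but both come from the 1 fit of 19 sperm libraries and share its scaling and its estimate of the spread. The test of the difference between both effects called 0 of 180 features (0%; edgeR), with 8 at an unadjusted p under 0.05 (4.44%) and a smallest adjusted p of 0.812. DESeq2 was not run on this or the following contrasts. The high-fat effect itself gave 0 calls (0%) and 6 features at an unadjusted p under 0.05 (3.33%). All 18 tested mitochondrial tRNAs lay below 0 under high fat (median -0.89), beside 88 of all 180 features (median 0.02). Under low protein 13 of 18 lay below 0 (median -0.22), beside 89 of 180 (median 0.01). The 18 differences between the effects had a median of 0.61, beside -0.02 over all features. As no feature was called, those named here were chosen after their values were seen. They are Snord55 (-1.80 ± 1.00 under low protein, 1.52 ± 0.82 under high fat, difference -3.31 ± 1.29), mt-tRNA-Leu-TAG-1 (0.45 ± 0.74 and -2.82 ± 1.12, difference 3.28 ± 1.34) and tRNA-Ser-AGA-1 (0.74 ± 0.69 and -1.90 ± 0.80, difference 2.65 ± 1.05), each with an adjusted p of 0.812. In high-fat sperm mt-tRNA-Leu-TAG-1 had only 0, 48.8, 0 and 27.5 RPM in replicates 1 to 4, so its difference rests on very few reads. There tRNA-Ser-AGA-1 had 97.6, 0, 131 and 137 RPM. Its low-protein effect turned below 0 without low-protein replicate 3, as given above.

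The organ the sperm were taken from gave a different picture for mitochondrial RNA, although the difference did not pass the test over all features. A fit of both tissues took in their libraries of every diet. In it the low-protein effect in sperm minus that in the cauda epididymis called 0 of 241 features (0%; edgeR). An unadjusted p under 0.05 was reached by 18 features (7.47%), and the smallest adjusted p was 0.0757. The cauda epididymis alone had 0 calls of 241 (0%), with 24 at an unadjusted p under 0.05 (9.96%) and a smallest adjusted p of 0.0688. All 18 tested mitochondrial tRNAs had a low-protein effect above 0 in the cauda epididymis, with a median of 1.06 beside 0.03 over all 241 features. The difference between tissues was below 0 for 17 of the 18, with a median of -1.62 beside -0.09 over all features, and 9 of them had an unadjusted p under 0.05. With DESeq2 size factors or total counts it was also 17 of 18, with medians of -1.18 and -1.22 beside 0.27 and 0.35 over all features. These tRNAs are cut from shared transcripts, so they are not 18 separate observations. With each of the 19 control and low-protein libraries of both tissues left out in turn, the median lay between -1.73 and -1.10. Cytosolic tRNAs went the other way. In the cauda epididymis 60 of 70 tested had a low-protein effect below 0 (median -0.65). The difference between tissues was above 0 for 52 of 70 (median 0.60), and for 61 of 70 with DESeq2 size factors (median 0.97). The contrast between tissues was thus not particular to mitochondrial tRNAs. Libraries of both tissues carry the same numbers, and whether these mark the same animals is not given; the fit treats the libraries as independent.

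The arginine tRNA mt-tRNA-Arg-TCG-1 (chrM:9808-9875, plus strand) had the smallest p of this contrast. In sperm it had 7764, 9536, 1978, 3469 and 1683 RPM in the control and 875, 2981, 9760.1, 2010.4 and 2376 RPM in the low-protein libraries, where replicate 3 alone reached the highest control libraries. In the cauda epididymis it had 1555, 1364, 4631, 1901 and 845 RPM on the control diet and 6435, 9505, 7981 and 10245 RPM on the low-protein diet, and these groups did not overlap. The log2 effects were -0.69 ± 0.63 in the fit of sperm alone and, in the fit of both tissues, 2.22 ± 0.59 in the cauda epididymis (edgeR adjusted p = 0.0688), and the difference was -3.03 ± 0.80 (adjusted p = 0.0757). Without low-protein sperm replicate 3 the difference was -3.43 (edgeR adjusted p = 0.0119) and that of the aspartate tRNA mt-tRNA-Asp-GTC-1 was -3.28 (edgeR adjusted p = 0.0228). Without control sperm replicate 5 the arginine tRNA had -3.20 (edgeR adjusted p = 0.0425). The arginine tRNA is listed under a second name, mt-Tr, with far fewer reads (38 against 731 in control sperm and 23 against 328 in low-protein sperm), so its level depends on which name is read. mt-tRNA-Gly-TCC-1 followed with a difference of -2.77 ± 0.85 (adjusted p = 0.190). mt-Rnr2 had -2.39 ± 0.97 and the H/ACA snoRNA Snora68 -3.45 ± 1.21 (adjusted p = 0.464 and 0.441).

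**Figure D4:**
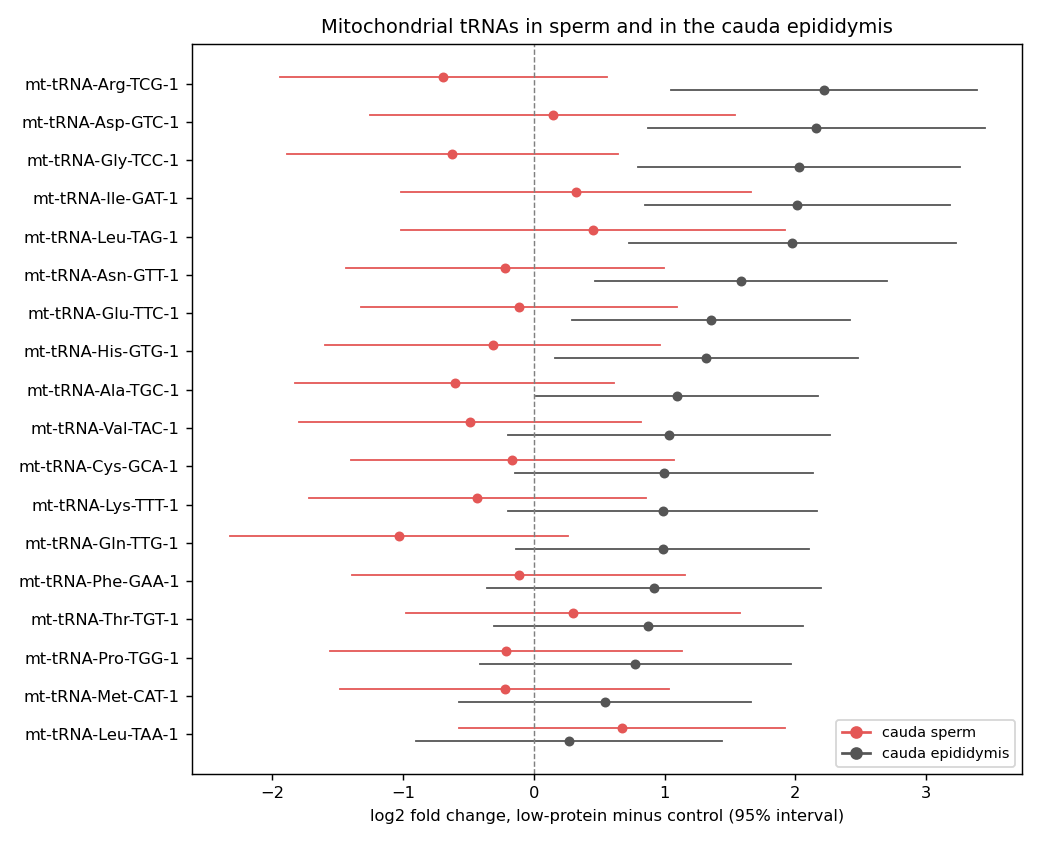
Log2 fold change, low-protein minus control (horizontal axis; point with its 95% interval), of the 18 mitochondrial tRNAs tested in cauda sperm (red) and in the cauda epididymis (grey). The grey points all lie above 0, up to 2.22 for mt-tRNA-Arg-TCG-1, while 13 of the 18 red points lie below 0 and every red interval includes 0.

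Last, both diets were set against sperm of the high-fat control diet, whose libraries enter the low-protein comparison only through the filter, the scaling and the spread of the shared fit. Low-protein sperm minus high-fat control sperm called 0 of 180 (0%; edgeR), with 11 at an unadjusted p under 0.05 (6.11%) and a smallest adjusted p of 0.543. Control sperm minus high-fat control sperm called 0 of 180 (0%), with 21 at an unadjusted p under 0.05 (11.7%) and a smallest adjusted p of 0.299. These contrasts share the high-fat control libraries, and each shares its other group with the main comparison. Relative to high-fat control sperm, mitochondrial tRNAs had a median log2 fold change of 0.99 in low-protein and 1.22 in control sperm, cytosolic tRNAs 0.71 and 0.63, and snoRNAs -0.70 and -0.93, beside -0.24 and -0.18 over all features. For tRNA-Asp-GTC-2 the values were 1.27 ± 0.67 in low-protein and 2.10 ± 0.69 in control sperm, and for Gm23472 they were -0.30 ± 0.62 and -1.54 ± 0.63.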

How the data were processed

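OTTR-seq small RNA libraries of mouse cauda sperm were compared between a low-protein and a control diet. The authors deposited whole-number counts per named RNA, not normalized. The submitters' processing notes name mm10, cutadapt and DESeq2, without their roles. The aligner and the rule for dividing reads among copies have no source here. Of 1268 entries, 1042 were kept as features, since most of the others list the same reads under a second name. 1 second name of a mitochondrial tRNA, mt-Tr, lists fewer reads than the kept name. The kept features hold 19.754% of the summed counts of the 10 libraries. RPM was computed over the kept features.

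All 19 sperm libraries were fitted in 1 edgeR quasi-likelihood model (TMM factors, filterByExpr with a minimum count of 10 and a minimum total of 15, robust), with Benjamini-Hochberg adjustment and calls at an adjusted p under 0.05. For the contrasts with the cauda epididymis, the same model was fitted to all 19 sperm and 18 cauda epididymis libraries, grouped by tissue and diet. Standard errors and intervals were derived from the F statistic. Class shares were compared with exact two-sided permutation tests over 252 splits. The scripts were tested on simulated data. The text names the 20 features with the smallest p (none was called), the 5 most abundant, and tRNAs of the 9 parent anticodons, selenocysteine and the initiator. The library groups, members and lists were chosen with earlier results of these data known. Coordinates and sequences come from GENCODE M21 on GRCm38, matched by gene name (507 of 512 names found). Some sequences are not reported here. Alternatives were other scalings, no filter, the 10 libraries alone, a replicate block, DESeq2, all entries, and each library left out. Versions were R 4.3.3, edgeR 4.0.16, DESeq2 1.42.0, limma 3.58.1, Python 3.11.15, scipy 1.17.1 and pandas 2.3.3.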

Additional observations from a re-analysis of the deposited data

Results flagged for a closer look

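Of 102 groups of 5 libraries examined (named features and class shares, in each diet), 8 held a library that stood far from the other 4, by a gap of more than 0.71 of the group's range. Chance gives such a gap in about 5% of groups of independent, normally distributed values. RPM need not follow that distribution, the groups share libraries and tRNA copies, and 20 features were picked by p. The 5% is therefore only a guide. In 7 of the 8 the library was low-protein replicate 3, which was high for serine, valine and glycine tRNAs and for a mitochondrial tRNA. It had 106550 RPM of tRNA-Val-CAC-2, 50996 RPM of tRNA-Val-AAC-1 and 12769 RPM of tRNA-Val-AAC-5. The serine tRNAs tRNA-Ser-TGA-2 and tRNA-Ser-AGA-1 stood at 7889.4 and 5449.4 RPM in that library, tRNA-Gly-CCC-1 at 8702.7 RPM and mt-tRNA-Arg-TCG-1 at 9760.1 RPM. In the control group, replicate 1 stood apart with 9348.3 RPM of tRNA-Glu-TTC-1.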

How the results depend on the processing

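The count of features called between the diets was 0 in all 20 alternatives of the main comparison. The lowest smallest adjusted p was 0.482 (edgeR, all entries of the table, 303 tested). The highest number of features at an unadjusted p under 0.05 was 28 of 815 tested, with no filter on low counts. With a replicate block over the 10 libraries, 0 of 119 features were called (smallest adjusted p 0.993), and 0 of 107 with anticodon sums. Same-numbered sperm libraries of both diets had correlations of -0.492, 0.451, -0.722, 0.147 and 0.78 in their deviations from the group means. For 1 number of 5 its own partner was the best, and whether the numbers stand for a pairing is not given. For the sperm effect minus the cauda epididymis effect, leaving out 1 of the 10 sperm libraries compared gave between 0 and 2 calls. The calls appeared without low-protein sperm replicate 3 (2 calls) and without control sperm replicate 5 (1 call), and the cause was not tested. Calls with a cauda epididymis library left out were not counted. With library numbers as a replicate block across both tissues, chosen after seeing the data, 0 of 168 features were called (smallest adjusted p 0.359) and 17 of 18 mitochondrial tRNAs stayed below 0 (median -1.19). The same 4 groups without the block gave 0 calls (smallest adjusted p 0.247). Correlations of same-numbered libraries of both tissues ran from -0.359 to 0.421. Differently numbered libraries were not compared, so these values cannot settle whether equal numbers mark the same animals. Of 715 recomputed differences of the 42 named features 90 had another sign and 0 passed the threshold, and of 96 recomputed class differences 19 had another sign. Among the 20 features with the smallest p, 3 changed sign in any setting. They were picked by p in these same libraries, so that count cannot show how stable their signs are. With anticodon sums the median of all features was -0.24 with TMM, -0.03 with DESeq2 size factors and 0.06 with total counts. The piRNA precursors had 42 to 227 reads a library, and 0 of their features passed the filter on low counts.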
